A study of Mus musculus with 32 samples.

Results

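The peaks described here are those of genes that carried several antibody-enriched stretches at the same time. They are all peaks, in the 6 lists from hippocampal homogenate, of genes with 4 or more peaks under the same gene symbol in each of those 6 lists. The rule took 124 of the 13067 genes named in the homogenate lists, and 5082 of 98293 homogenate peaks. The number of peaks per gene in the homogenate therefore chose the members and is given below as a description. A fit of that number was run over all genes and is not read for the members. All 16 lists of the series together hold 148981 peaks.

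The series measured N4-acetylcytidine (ac4C) in RNA of the hippocampus of C57BL6/J mice by acRIP-seq, in which RNA fragments of about 200 nt were pulled down with an ac4C antibody and sequenced. Groups C and L were each sampled in 3 homogenates, that is whole tissue, on day 6. From the synapse fraction there is a single C list and a single L list for each of days 1, 6 and 20. A further set gave 2 control lists and 2 lists labelled cKO, whose peak names inside the files read AAV-Cont and AAV-cKO. The sample titles of that set give no day and do not say whether homogenate or synapse fraction was used. The series concerns learning and memory, and peaks of C are named Control in the files, those of L Learning. Age is not among the labels used here, which also do not name the deleted gene or the cells that lost it, and do not state whether samples of a group are separate animals, so the spread between lists may be technical. With peaks alone and no counts of reads, the depth of each list is unknown, and absence from a list can mean a value under the authors' threshold.

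In background, ac4C is made on RNA by the acetyltransferase NAT10, which also acetylates ribosomal and transfer RNA. In messenger RNA it has been linked to transcript stability and to translation. An antibody peak marks a fragment-sized stretch that was enriched over input and not a single base. In bulk tissue fewer cells of a type and less RNA per cell cannot be told apart.

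Peaks at the start of a gene were the stretches for which sequence could be printed. RefSeq start windows of GRCm38.p6, the mm10 assembly, reach from 250 bases before a start site to 50 bases after it. Of 101 genes with such a window, 27 (26.7%) had a window overlapped by a peak in all 6 homogenate lists, against 9.23% of other coding genes with a window. Genes with many peaks in every list have more chances of a peak at the start, so the share is a description. The windows of 4 genes are shown as examples in which a start-site peak recurred in the synapse fraction. Windows of other members recurred as often or more, such as that of Olfm1 in 4 synapse lists and 1 of Myo18a in 3. Capitals mark the bases that were covered in all 6 homogenate lists, read 5′ to 3′ on the gene's strand.
Pclo: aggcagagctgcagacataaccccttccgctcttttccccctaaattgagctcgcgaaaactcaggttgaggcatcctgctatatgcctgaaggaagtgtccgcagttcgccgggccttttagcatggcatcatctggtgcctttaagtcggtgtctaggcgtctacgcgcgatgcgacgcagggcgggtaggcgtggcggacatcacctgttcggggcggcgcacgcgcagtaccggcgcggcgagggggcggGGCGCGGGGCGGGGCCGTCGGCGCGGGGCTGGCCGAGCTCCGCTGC
Wwc1: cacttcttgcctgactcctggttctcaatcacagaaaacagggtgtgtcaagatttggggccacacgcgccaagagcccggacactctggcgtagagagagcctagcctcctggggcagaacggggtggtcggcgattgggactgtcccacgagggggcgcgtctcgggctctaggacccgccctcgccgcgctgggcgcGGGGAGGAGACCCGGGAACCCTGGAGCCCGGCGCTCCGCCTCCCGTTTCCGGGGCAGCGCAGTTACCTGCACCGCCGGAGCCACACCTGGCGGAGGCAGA
Ubr4: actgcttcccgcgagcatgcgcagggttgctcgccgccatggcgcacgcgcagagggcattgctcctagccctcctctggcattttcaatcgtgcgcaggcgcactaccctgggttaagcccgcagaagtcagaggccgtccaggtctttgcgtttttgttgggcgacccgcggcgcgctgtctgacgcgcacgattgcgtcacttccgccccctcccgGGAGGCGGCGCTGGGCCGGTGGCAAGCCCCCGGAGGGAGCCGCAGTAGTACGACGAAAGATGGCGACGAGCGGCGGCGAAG
Rbm33: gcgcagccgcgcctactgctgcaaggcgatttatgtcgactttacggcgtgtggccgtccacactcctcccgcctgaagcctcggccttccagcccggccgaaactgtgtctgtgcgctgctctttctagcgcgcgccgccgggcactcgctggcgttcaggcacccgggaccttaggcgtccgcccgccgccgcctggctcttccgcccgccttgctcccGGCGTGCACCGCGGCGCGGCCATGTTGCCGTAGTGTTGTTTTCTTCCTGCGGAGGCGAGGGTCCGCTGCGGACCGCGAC
The counts of lists that follow concern the window alone. The Pclo window lies at chr5:14514668-14514967 on the plus strand, and was overlapped in 3 synapse lists and no control list. The whole Pclo region that begins in this window, chr5:14514801-14515652, was overlapped in all 6 synapse lists and in both control lists. The Wwc1 window lies at chr11:35980478-35980777 on the minus strand, and was overlapped in 2 synapse lists, both control lists and both cKO lists. The Ubr4 window lies at chr4:139380409-139380708 on the plus strand, and was overlapped in 2 synapse lists, both control lists and no cKO list. The Rbm33 window lies at chr5:28316939-28317238 on the plus strand, and was overlapped in 2 synapse lists, 1 control list and 1 cKO list.
In each of the 4 windows the covered bases reached the downstream end of the window, so the peaks ran on into the transcribed side.

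The gene with the most peaks was Smarca2, which encodes the ATPase subunit of a SWI/SNF chromatin remodelling complex. It held 17, 15 and 14 peaks in the 3 C lists and 16, 16 and 12 in the 3 L lists. Its lowest list held 12 peaks, and the lowest of every other member held 8 or fewer. All 90 of its peaks lay inside its own span of 173249 bp on chromosome 19. The groups overlapped.
Syne1, which encodes nesprin-1, a linker between the nucleus and the cytoskeleton, came next by mean. It held 21, 6 and 9 peaks in C and 31, 7 and 7 in L, so its high mean of 13.5 rested on the lists numbered 1.
Dpf1 (a subunit of neuronal SWI/SNF complexes) and Cep164 (a centriole protein) had means of 12.2 and 10.8 peaks. Most of the peaks of both genes lay in a neighbouring gene, as described below.
Also among the 15 highest means were, in order, Rbm33, Wwc1, Ndel1, Ubr4, Sap130, Zmynd8, Clec2l, Mtcl1, Plec and Slc2a2, at 10.7 to 9.17 peaks. Wwc1 encodes KIBRA, a scaffold protein that human genetics has linked to memory. Ndel1 regulates the motor dynein, Ubr4 is a ubiquitin ligase, Plec is a linker of cytoskeletal filaments, and Sap130 and Zmynd8 encode chromatin proteins.

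**Figure D1:**
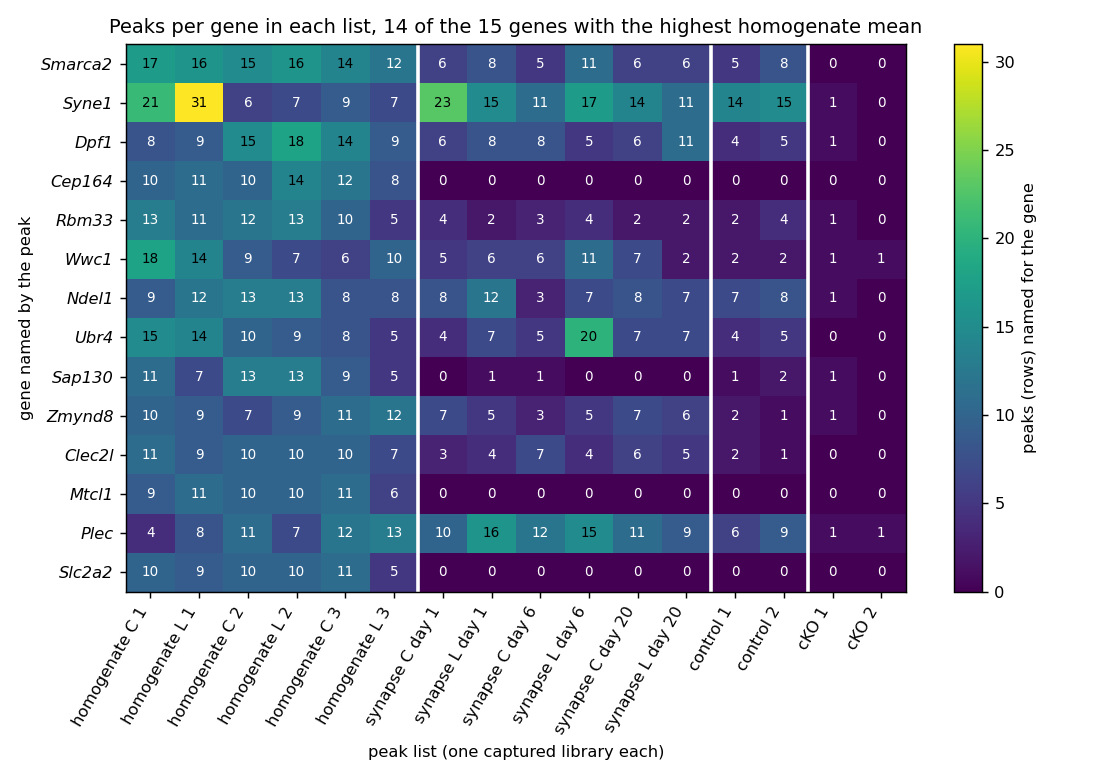
Number of peaks named for 14 of the 15 genes with the highest homogenate mean (vertical axis) in each of the 16 lists (horizontal axis), printed in the cells and shaded from 0 to 31; white lines part homogenate, synapse, control and cKO lists. Smarca2 held 12 to 17 homogenate peaks, Cep164, Mtcl1 and Slc2a2 held none in any of the other 10 lists, and the cKO columns held at most 1 peak per gene.

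By the symbols as deposited, the cytoskeleton and chromatin lists had the most members, and the counts by location, given below, put them in the other order. Of 22 genes for spectrins, ankyrins, microtubule proteins and linkers, 7 were members, namely Ank1, Ank2, Dst, Plec, Map4, Mapt and Syne1. Mapt, which encodes the microtubule protein tau, held 8, 8 and 7 peaks in C and 5, 12 and 8 in L. Dst, a giant linker protein gene, held 4, 5 and 10 in C and 4, 6 and 9 in L. Ank1, an ankyrin gene, held 9, 5 and 9 in C and 7, 4 and 6 in L.
Of 31 chromatin genes, 6 were members: Ep400, Chd5, Smarca2, Smarca4, Setd1b and Ncor1. Smarca4, the other ATPase of SWI/SNF complexes, held 7, 6 and 5 peaks in C and 5, 6 and 6 in L. Chd5, a neuronal remodeller, held 5, 12 and 5 in C and 6, 7 and 12 in L. Setd1b, a histone methyltransferase gene, held 6, 8 and 6 in C and 6, 7 and 5 in L. Ncor1, a corepressor gene, held 6, 4 and 5 in C and 11, 6 and 5 in L.
The motor, active zone, ubiquitin and RNA processing lists had 1 member each, which were Myo18a of 12, Pclo of 12, Ubr4 of 15 and Srrm1 of 23 genes. None of 20 postsynaptic scaffold genes, 17 glutamate receptor genes, 23 channel genes or 39 adhesion genes was a member. As background, 2.77% of the 4483 genes with a peak in each homogenate list were members. Over those 4483 genes, the median of the mean number of peaks was 1.83. Since long genes can hold more peaks, the counts per list were not compared between functions.
Of the cell type markers, Camk2a of excitatory neurons and Mbp of oligodendrocytes were members. Camk2a held 4, 5 and 5 peaks in C and 4, 5 and 5 in L. Among 8 markers of hippocampal and excitatory neurons, 5 had a peak in each homogenate list, and all 8 had a peak in at least 1 of them. No marker of interneurons, astrocytes, microglia, endothelial cells or choroid plexus was a member. The 6 endothelial and 5 choroid plexus markers had no peak in any synapse, control or cKO list. In the homogenate, 4 of the 6 and 3 of the 5 had a peak in at least 1 list, and 1 and 2 had one in each list. As background, 39.8% of the 4483 genes were also named in no synapse, control or cKO list, so nothing is read about these cell types.

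The symbol given to a peak was often not that of the gene in which the peak lay. Only 58.8% of the 5082 member peaks overlapped the span of the gene they were named for, against 76.1% of other homogenate peaks and 75.2% of all homogenate peaks. Per list the share for members was 58.8% ± 2.57 (SD, n = 3) in C and 58.9% ± 0.624 (SD, n = 3) in L, so the groups did not differ beyond their spread. Yet 99.4% of member peaks lay in the span of some coding gene. For 79.8% of member peaks the nearest RefSeq coding start site was that of the named gene, and for those outside the named gene the share was 80.9%. The files give the same strand sign for every peak, so the transcribed strand of a peak is not known.
For 45 of the 124 genes every homogenate peak lay inside the named gene. For 53 genes more peaks lay outside than inside, and for 10 genes none lay inside.
Those 10 included Slc2a2, the gene of a glucose transporter best known from liver and pancreas. Its 55 peaks all lay in the span of its neighbour Tnik, which encodes a kinase found at synapses. All 39 peaks named for Apoa1, a lipoprotein gene, lay in Sik3. All 43 named for the homeobox gene Dbx1 lay in Nav2, all 29 named for the homeobox gene Gbx2 lay in Agap1, and all 42 named for the potassium channel gene Kcnj13 lay in Gigyf2. For Lypd6b 40 peaks lay in the kinesin gene Kif5c, for Pomt1 47 in Prrc2b, for Edn2 31 in Hivep3, for Myzap 34 in Cgnl1 and for Col4a2 48 in Col4a1.
Among the genes with the highest means, 55 of the 73 peaks named for Dpf1 lay in Sipa1l3. Of those named for Cep164, 44 of 65 lay in the adhesion gene Dscaml1. Of those named for Wwc1, 50 of 64 lay in the adhesion gene Tenm2, of those named for Ndel1, 54 of 63 lay in the myosin gene Myh10, and of those named for Clec2l, 51 of 57 lay in Hipk2. The only immediate early gene among the members, Ier2, had 5 of 51 peaks in its own span of 1522 bp, 31 in the calcium channel gene Cacna1a and 15 in Nacc1.
The genes with the most peaks per 10 kb of their own span were short genes of this kind, led by Rpl32l with 73.2 peaks per 10 kb, Nsmce3 with 62.5 and Ier2 with 55.8. Of the 26 peaks named for Rpl32l 20 lay in Map7, and of the 51 named for Nsmce3 only 3 lay in Nsmce3.
In several further genes, many of the peaks lay in a neighbour known from neurons. Of the 52 peaks named for Sec13, a nuclear pore and vesicle coat gene, 50 lay in the calcium pump gene Atp2b2. Of 40 named for Tbc1d2, 37 lay in Gabbr2, which encodes a GABA-B receptor subunit. Of 41 named for the ubiquitin ligase subunit gene Fbxo21, 26 lay in Nos1, the gene of neuronal nitric oxide synthase.
For Rad18, a DNA repair gene, 35 of 37 peaks lay in Srgap3, and for Pxdn, a peroxidase gene, 25 of 41 lay in the neuronal transcription factor gene Myt1l. Cttn, which encodes the actin-binding protein cortactin, had 20 of 48 peaks in its own span, 19 in the postsynaptic scaffold gene Shank2 and 9 in Ppfia1. Nfu1, an iron-sulfur cluster gene, had 44 of 49 in the kinase gene Aak1, and Cfap298 had 20 of 40 in its own span and 18 in Synj1, which encodes the synaptic vesicle phosphatase synaptojanin. These neighbours were picked after the places were seen and are examples.

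**Figure D2:**
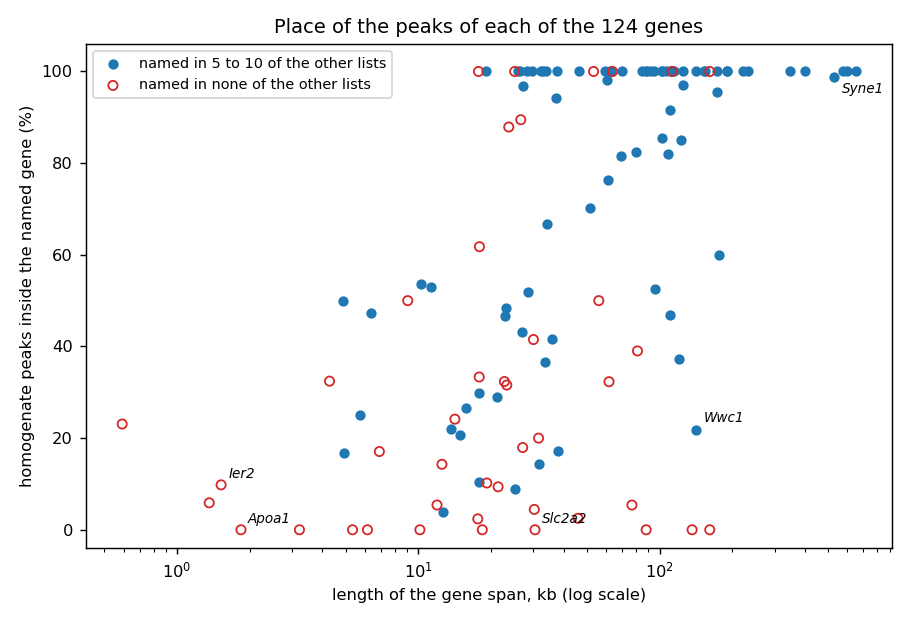
Percent of a gene's homogenate peaks that overlapped its own span (vertical axis) against the length of that span in kb on a log scale (horizontal axis), 1 point for each of the 124 genes, filled blue for genes named in 5 to 10 of the 10 other lists and open red for genes named in none. The 45 genes with every peak inside lie along the top, and the 10 genes with none, such as Slc2a2 and Apoa1, along the bottom.

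Counted by location, with each peak assigned to the only coding gene whose span it overlapped, 165 genes had 4 or more peaks in each homogenate list. This recount was chosen after the data were seen. Of those 165 genes 58 (35.2%) were members, which is 46.8% of the 124. Smarca2 still led with a mean of 15 peaks, followed by Syne1 with 13.3. Kalrn, an exchange factor gene of dendritic spines, was no member by symbol and had 25, 6 and 12 peaks in C and 16, 10 and 9 in L by location. Arid1b, a SWI/SNF subunit gene, had a mean of 11.8 and Atp2b2, a calcium pump gene, one of 11.7. As background, the 165 genes are 4.07% of the 4055 genes with a peak by location in each homogenate list. By location 11 of the 31 chromatin genes, 6 of the 22 cytoskeleton genes and 5 of the 12 motor genes passed the same minimum. It was also passed by 4 of the 20 postsynaptic genes (Shank2, Kalrn, Trio and Iqsec1), 4 of the 23 channel genes (Cacna1a, Cacna1d, Cacna1g and Scn8a) and 4 of the 39 adhesion genes. The RNA processing list had 3 of 23, the ubiquitin list 2 of 15 and the active zone list 1 of 12. None of the 17 glutamate receptor genes or of the 17 immediate early genes passed.

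Joined over the 6 lists, the 5082 peaks formed 1554 regions, where a region is the union of peaks of 1 gene that share at least 1 base. A gene had 3 to 40 regions, with a median of 12, and Syne1 had the most. Of the regions, 267 (17.2%) were held by all 6 homogenate lists and 463 (29.8%) by 1 list alone. For other genes these shares were 9.94% and 43.4%. The rule asks for peaks in every list, so a higher share of recurring regions follows in part from the choice of genes.
At least 1 region was held by all 6 lists in 113 of the 124 genes, and 4 or more such regions in 14 genes. Pclo, which encodes the active zone scaffold piccolo, and Smarca2 had 7 each, the highest number.
All 7 regions of Pclo were held by all 6 homogenate lists. Its homogenate lists held 7, 8 and 8 peaks in C and 7, 8 and 8 in L. The regions were chr5:14514801-14515652, chr5:14520644-14522517, chr5:14539238-14540998, chr5:14668789-14669860, chr5:14674886-14678688, chr5:14680782-14682537 and chr5:14712394-14713255. They fell into a group of 3 near the start and a group of 4 farther on, with none in the remainder of the span of 348560 bp.
Nucks1, the gene of a nuclear DNA-binding protein, had exactly 5 peaks in each of the 6 lists and 5 regions, each held by all 6. Cdk11b, a kinase gene, held 5, 6 and 5 peaks in C and 5, 5 and 6 in L, and 5 of its 6 regions were held by all 6 lists.
Other genes had many regions of which few recurred. Of the 40 regions of Syne1, none was held by all 6 lists. Of the 30 regions of Ubr4 and of the 19 of Myo10, 1 each was.
Several genes with every homogenate peak in their own span show the same range of recurrence. App, which encodes the amyloid precursor protein, held 4, 5 and 4 peaks in C and 4, 4 and 4 in L over a span of 222590 bp, and 3 of its 5 regions were held by all 6 lists. Drosha, the gene of the nuclease that starts microRNA processing, held 8, 9 and 8 in C and 10, 8 and 5 in L, and 3 of its 15 regions were held by all 6.
Wnk2, a kinase gene, held 7, 10 and 9 in C and 9, 10 and 6 in L, yet none of its 15 regions was held by all 6 lists. Itsn1, which encodes the endocytic scaffold intersectin, held 7, 4 and 9 in C and 8, 8 and 4 in L, with 1 of 12 regions in all 6. Tjp1, the gene of a tight junction scaffold, held 8, 7 and 7 in C and 9, 7 and 5 in L, with 4 of 11 regions in all 6.

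**Figure D3:**
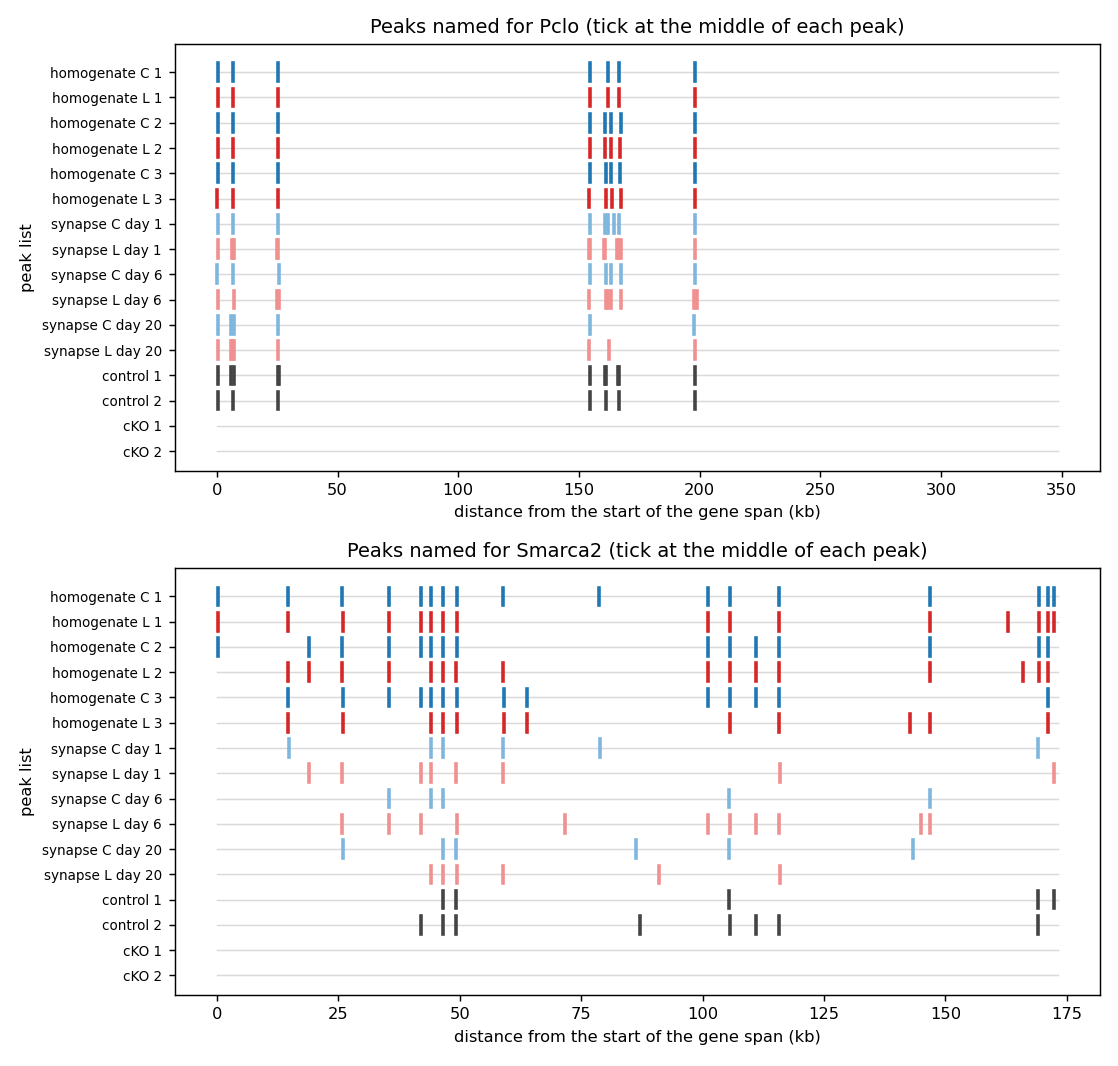
Position of every peak named for Pclo (upper panel) and Smarca2 (lower panel) in kb from the start of the gene span (horizontal axis) in each of the 16 lists (vertical axis); each tick is the middle of a peak and is coloured by group, with homogenate in dark and synapse in pale blue (C) and red (L), control in grey and cKO in orange. All 7 Pclo regions of the homogenate are overlapped in both control lists and 5 of them in all 6 synapse lists, and neither gene has a tick in the cKO lists.

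Neighbouring regions of a member gene lay close together. The median gap was 2751.5 bp, with the middle of the distribution from 1071.5 to 7017 bp between the quartiles. For other genes the median was 3445 bp and the quartiles 1169 and 10740 bp. Gaps under 1 kb made up 23.4% of the member gaps and 21.7% of the others, and gaps over 10 kb 17.3% and 26.5%. More peaks in a gene shorten the gaps by themselves, so the difference is a description. Regions held by all 6 lists were farther apart, with a median gap of 8030 bp in members and 9272.5 bp in others. Over a whole gene, the peaks of a member spread over 13891 to 767970 bp, with a median of 68479.5 bp.
The gaps differed by gene. The median gap was 851 bp in Plec, 1523 bp in Ndel1, 4244 bp in Smarca2, 7325 bp in Syne1 and 10872.5 bp in Pclo. Within single lists, the median gap between peaks of a gene was 3678 to 5392 bp for members and 3669 to 5896 bp for other genes, so the ranges overlapped.
The smallest gap allowed between peaks was not the same in all lists. No 2 peaks lay closer than 501 bp in either list numbered 1, against 201 bp in the second C list and 301 bp in the other 3. Joining peaks less than 500 bp apart before counting left 110 genes.
Member peaks were wider than others of the same list in each of the 6 lists. The median width was 452 to 483 bp in the lists other than the third L list, which had 392 bp. For other peaks of the same lists, the medians ran from 411 to 442 bp, and were 299 bp in the third L list. The median percentile of the authors' fold of member peaks within their own list was 42.2 to 59.2, close to the middle of each list.

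Learning and control were compared in the homogenate first. The third L list stood apart from the other 5, with 711 member peaks against 842 to 897. Without it the rule would have taken 229 genes, against 126 to 142 without any other single list. In C the lists held 863 ± 25.9 member peaks (SD, n = 3) and in L 831 ± 104 (SD, n = 3), a difference smaller than the spread.
Covered bases per gene, the summed width of its peaks in a list, were tested over all 4483 genes with a peak in each homogenate list. With limma and Benjamini-Hochberg adjustment, no gene passed in either direction (0% higher and 0% lower in L), with 74 genes at an unadjusted p under 0.05, none of them among the 124. With the log2 number of peaks as the measure, 19 genes passed, none a member. Members were chosen by that number, with a minimum of 4 in every list, so nothing is read from this for them. The median log2 difference in covered bases of the 124 genes, L minus C, was -0.17, against -0.15 over all genes. Without the third L list these medians were 0.10 and 0.07, so the sign rested on that list.
The member with the smallest p was Zfpm1, a cofactor gene of GATA factors. Its peaks covered 7019, 2786 and 7246 bases in C and 2247, 3147 and 1710 in L, and the groups overlapped. The log2 difference was -1.18 (SE 0.51, n = 3 and 3, adjusted p = 0.999 by limma).
Pebp1, which encodes an inhibitor of Raf kinase, covered 4870, 3118 and 2550 bases in C and 1655, 2127 and 1800 in L, with no overlap, at a log2 difference of -0.87 (SE 0.41, adjusted p = 0.999 by limma). Of its 36 peaks 30 lay in Taok3. Sdc3 and Mbp had log2 differences of -0.79 and -0.64 at the same adjusted p.
Numbers of peaks without overlap between the groups were found in 4 member genes, of which 1 was higher and 3 lower in L. Over all 4483 genes, 0.535% were higher and 0.781% lower. Compared within each replicate number, 6 members held more peaks in L in all 3 pairs and 10 fewer, against 1.81% and 2.74% of the 4483 genes. Mbp, the gene of myelin basic protein, held 9, 6 and 7 peaks in C and 4, 5 and 5 in L. Pebp1 held 6, 8 and 8 in C and 4, 5 and 5 in L. Slc45a1 held 7, 6 and 5 in C and 4, 4 and 4 in L. Srrm1, a splicing factor gene, held 4, 5 and 5 in C and 6, 6 and 6 in L. Members were chosen by these same numbers, which cannot go under 4, and nothing is read from these counts.
The lists numbered 1 differed from the others in C and L alike. In 17 of the 124 genes (13.7%) both held more peaks than each of the other 4 lists, and in 7 (5.65%) both held fewer, against 7.92% and 4.53% of the 4483 genes. Besides Syne1 the 17 included Wwc1, with 18 and 14 peaks against 6 to 10, and Dbx1, with 12 and 12 against 4 or 5. Dst was among the 7, with 4 and 4 against 5 to 10.

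Whether a member appeared in the other lists at all split the genes into separate sets. Of the 124 genes, 43 were named in none of the 10 synapse, control and cKO lists, no gene was named in 1 to 4 of them, and 81 were named in 5 or more. The 43 genes are 34.7%, and 39.8% of the 4483 genes were named in none. Among those 4483 genes, 58 were named in exactly 1 of the 10 lists, 118 in 2, 192 in 3 and 215 in 4. A gene with more peaks has more chances of being named in many lists, so the gap at 1 to 4 is a description.
The mean number of homogenate peaks per list was 6.95 for the 43 genes and 6.77 for the 81 genes. Both sets were chosen by this number, with a minimum of 4 in each list, so nothing is read from the likeness. The 43 genes formed 534 regions, of which 96 were held by all 6 homogenate lists. None of the 534 regions was overlapped by any peak of the 10 lists, whatever gene that peak named. The 43 genes include Cep164, Mtcl1, Slc2a2, Nsmce3, Ier2, Setd1b, Cdk11b and Zfpm1. Mtcl1, a microtubule crosslinking factor gene with all 57 peaks in its own span, held 9, 10 and 11 peaks in the C lists and 11, 10 and 6 in the L lists, and none elsewhere. Of the 53 genes with more peaks outside than inside their span, 32 were among the 43. The 10 lists name 5722 genes in all, against 13067 in the homogenate. Whether peaks of such genes were missing from the synapse, control and cKO samples, or were not kept when those lists were made, cannot be told apart from the lists. Recurrence is therefore given over all regions and also over regions of the genes named in at least 1 of the 10 lists, a restriction chosen after the data were seen.

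**Figure D4:**
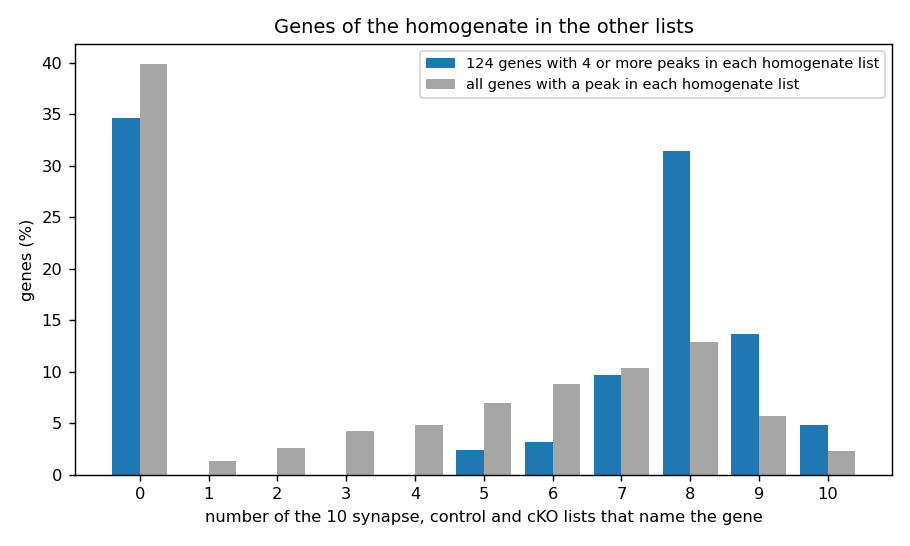
Percent of genes (vertical axis) by the number of the 10 synapse, control and cKO lists that name them (horizontal axis), for the 124 genes (blue) and for all 4483 genes with a peak in each homogenate list (grey). Among the 124 genes, 34.7% stand at 0, none stands at 1 to 4, and the others stand at 5 to 10.

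In the synapse fraction, 606 of the 1554 member regions (39.0%, Wilson 95% interval 36.6 to 41.4) were overlapped by a peak of at least 1 list, against 28.9% of all 37546 homogenate regions. Restricted to genes named in at least 1 of the 10 lists, the share was 59.4% of 1020 member regions and 58.4% of 18155 regions of all such genes. No list other than the homogenate lists overlapped 900 member regions (57.9%), against 68% of all homogenate regions. The intervals cover counting error only, and regions of a gene are not independent.
Recurrence was higher for regions held by more homogenate lists. Among regions of genes named elsewhere, 39.5% of member regions held by 1 homogenate list were overlapped in the synapse, and 88.9% of those held by all 6. For other genes these shares were 38.8% and 91.6%. At each number of homogenate lists from 1 to 6 the 95% interval for the members overlapped that for other genes.
All 6 synapse lists overlapped 43 member regions (2.77%), against 1.51% of all homogenate regions. Of the 124 genes 59 had a peak in all 6 synapse lists, which is 47.6%, against 19.2% of the 4483 genes. Among the genes named elsewhere the shares were 72.8% and 31.9%. A gene with more peaks has more chances of 1 in each list.
All 7 Pclo regions were overlapped in the synapse, 5 of them in all 6 lists. Pclo held 9, 8 and 6 peaks in the C lists of days 1, 6 and 20 and 14, 11 and 8 in the L lists. The L lists have smaller gaps and narrower member peaks, as given below, so these numbers are not like for like. Of the 23 Smarca2 regions 17 were overlapped in at least 1 synapse list and none in all 6. Smarca2 held 6, 5 and 6 peaks in the C lists and 8, 11 and 6 in the L lists, fewer than in any homogenate list. Syne1 held 23, 11 and 14 in C and 15, 17 and 11 in L, more than in the 4 homogenate lists numbered 2 and 3. Plec held 10, 12 and 11 in C and 16, 15 and 9 in L, and 9 of its 10 regions were overlapped.
Each synapse group and day has 1 list, so C and L have no replicate check there. On day 1 the C list held 353 and the L list 386 member peaks. On day 6 the values were 329 and 377, and on day 20 they were 257 and 317. L over C was thus 1.09, 1.15 and 1.23, against 1.07, 1.06 and 1.05 for all peaks of the same lists. The lists differed in form, with a smallest gap between peaks of 146, 143 and 118 bp in L against 301, 301 and 302 bp in C. The median width of member peaks was 231.5, 195 and 279 bp in L against 407, 323 and 344 bp in C. One stretch can thus count as more peaks in L, and the part of this in the ratios was not tested. The last peak of the day 6 L list, as ordered in the file, is at chromosome 7 position 118984776, and 15 member genes lie past that point. Within the range that this list covers the member ratios were 1.10, 1.24 and 1.22. Ratios over all peaks were not computed for that range, so these values have no like background. The all-peak ratio of 1.06 on day 6 sets the L list that ends there against the whole C list. On day 20, 38 members had more peaks in L, 26 fewer and 60 the same number, zeros included. On day 1 the numbers were 36, 35 and 53, and on day 6 they were 37, 33 and 54. The day 6 numbers include the 15 member genes past the end of the L list, which can only be fewer or equal in L. Such numbers over all genes are not given here, so those of the members have no background and nothing is read from them. Ubr4 held 4, 5 and 7 peaks in the C lists of the 3 days and 7, 20 and 7 in the L lists, so that its high value was in 1 list.

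In the second set, both control lists overlapped 133 of the 1554 member regions (8.56%), against 6.03% of all homogenate regions. Among genes named elsewhere the shares were 13.04% and 12.3%. Both control lists and neither cKO list held 113 member regions (7.27%), against 4.6% of all homogenate regions, and among genes named elsewhere 11.1% against 9.39%. At least 1 cKO list overlapped 37 member regions (2.38%), against 3.54% of all regions, and among genes named elsewhere 3.63% against 7.12%. All 37 were overlapped in the first cKO list and 6 (0.386%) in the second, against 3.43% and 1.03% of all regions.
The gap to other genes in the cKO lists was largest for regions held by all 6 homogenate lists. Of 171 such member regions of genes named elsewhere, 13 (7.60%, Wilson 95% interval 4.50 to 12.6) were overlapped in a cKO list, against 20.8% (19.2 to 22.5) of the 2267 regions of other genes. All 13 were overlapped in the first cKO list, against 20.3% of regions of other genes, and 4 (2.34%) in the second, against 7.499%. In both control lists the same regions were overlapped in 37.4% (30.5 to 44.9) and 41.3% (39.3 to 43.4). Over all genes, named elsewhere or not, regions held by all 6 lists had a median width of 697 bp in members and 963.5 bp in others. A wider region has more chances of sharing a base with a peak, and the part of this in the shares was not tested. The members were chosen with results of these data known and regions share genes, so no test was made.
Fewer peaks were listed in cKO than in control over all genes, and the ratio was lower still for member peaks. In the first set there were 251 member peaks in the control list and 42 in the cKO list, a ratio of 0.167, against 0.424 for all peaks. In the second set there were 282 and 6, a ratio of 0.0213 against 0.0822. Over all genes the control lists held 4446 peaks of 2916 genes and 5132 of 3165, and the cKO lists 1887 of 1643 and 422 of 414. With nearly as many genes as peaks in the cKO lists, genes chosen for many peaks can have a lower ratio than others. The part of this in the ratios was not tested. Member peaks made up 5.65% and 5.49% of the control lists, and 2.23% and 1.42% of the cKO lists. In the homogenate the share was 4.68% to 5.50%. Of the control member peaks, 18 (7.17%) in the first set and 6 (2.13%) in the second were overlapped by a cKO peak of the same set, against 13.6% and 5.59% of other control peaks.
The cKO lists also differed in form. The second cKO list holds no peak under 500 bp, against a minimum of 200 bp in its control and of 150 bp in both lists of the first set, and it has 422 peaks against 1887 in the first cKO list. The part of these differences in the result was not tested. With only peaks of at least 500 bp in all 4 lists, 13 member regions were in both control lists and neither cKO list, against 113 as deposited. That filter also removed control peaks, as the median width of member peaks was 215 and 389.5 bp in the control lists. The share over all regions was not computed with it, so nothing is read from the 13.

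**Figure D5:**
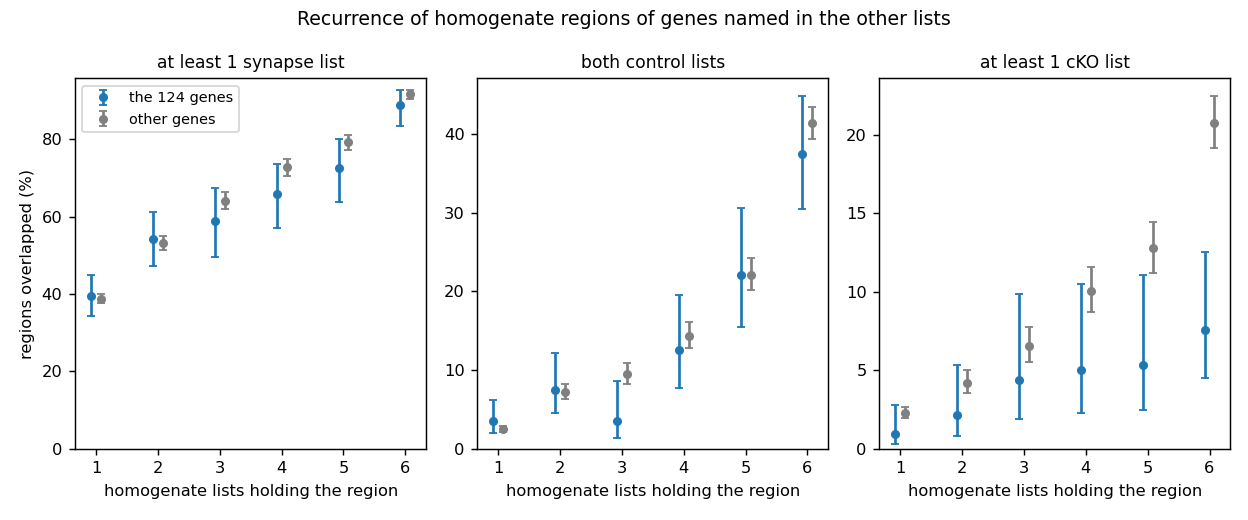
Percent of homogenate regions overlapped in at least 1 synapse list (left), both control lists (middle) and at least 1 cKO list (right) on the vertical axes, by the number of homogenate lists that hold the region on the horizontal axes, for regions of genes named in at least 1 of the 10 other lists. Blue is the 124 genes, grey other genes, and bars are Wilson 95% intervals for counting error; at 6 homogenate lists the cKO shares are 7.60% and 20.8%, and the synapse shares 88.9% and 91.6%.

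By gene, 73 members were named in both control lists, and 42 of those in neither cKO list. The 42 are 33.9% of members, against 20% of the 4483 genes. Among genes named elsewhere they are 51.9% of 81, against 33.3%. Members were also more often named in both control lists, 90.1% of the 81 against 57.4% of genes named elsewhere. Of all genes named elsewhere, 1547 were in both control lists and 898 of those in neither cKO list, beside 73 and 42 of the members. A gene with more peaks has more chances of 1 in both control lists, so the 42 are not read as a loss particular to members. A cKO peak was found in 33 members (26.6%), against 21.7% of the 4483 genes, and in 40.7% against 36.1% of the genes named elsewhere. 
Pclo held 11 and 7 peaks in the control lists and none in the cKO lists, and all 7 of its regions were overlapped in both controls. Smarca2 held 5 and 8 in the controls and none in the cKO lists. Syne1 held 14 and 15 in the controls and 1 and 0 in the cKO lists. Ndel1, with 7 and 8 in the controls, held 1 and 0, and Map7d2, the gene of a microtubule-associated protein, with 3 and 7 in the controls, held none.
App, with 1 and 2 peaks in the controls, Drosha, with 2 and 4, and Acbd3, the gene of a Golgi protein, with 2 and 4, also held none in the cKO lists. Wnk2 held 7 and 7 in the controls and 1 and 0 in the cKO lists, and Itsn1 held 3 and 4 in the controls and 2 and 0 in the cKO lists.
A peak in both cKO lists was found for 6 members, which were Cabp7, Mbd2, Olfm1, Plec, Smad7 and Wwc1. Smad7, which encodes an inhibitor of transforming growth factor beta signalling, held 3 and 4 peaks in the controls and 4 and 1 in the cKO lists, and all 3 of its regions were overlapped in a cKO list. Cabp7, a calcium-binding protein gene, held 3 and 3 in the controls and 2 and 1 in the cKO lists. Olfm1, the gene of a secreted neuronal glycoprotein, held 2 and 4 in the controls and 1 and 1 in the cKO lists. Agrn, the gene of the synapse organiser agrin, held 2 and 0 in the controls and 2 and 0 in the cKO lists.
A single member region was held by all 16 lists. It lies in Plec, at chr15:76170950-76184267, and is 13318 bp wide, the widest of the member regions. Regions held by 15 of the 16 lists lay in Myo18a at chr11:77777107-77778748, in Olfm1 at chr2:28205027-28206742 and in Smad7 at chr18:75366849-75369724. A further 27 regions were held by 14 lists, among them 5 of Pclo.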

How the data were processed

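Peak lists of 16 captured mouse hippocampus libraries were used, and the 16 input libraries have no list used here. The submitters' processing notes list HISAT2 2.0.4, cutadapt 1.9.3 and FastQC, and mm10 as the build. No peak caller is given in the sources used here. Each list belongs to 1 library. Per the file headers, every peak has the authors' gene symbol and score, their -log10 p-value, their -log10 q-value and their fold enrichment. Every deposited fold was above 2 and every deposited -log10 q-value at least 1.3. The score and the p-value were not used, and the fold and the -log10 q-value were used only to rank or filter peaks within a list.

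Symbols were used as deposited, and each of the 124 matched a symbol in RefSeq's GRCm38.p6 gene table. It gave gene spans but no exons, so exonic and intronic places were not analysed here. Peaks were joined and compared with pandas 2.3.3 where they shared at least 1 base. Covered bases were tested with limma 3.58.1 on the log2 scale, without the replicate number as a block and with Benjamini-Hochberg adjustment over 4483 genes. The fit was first tested on simulated data. Whether the numbers 1 to 3 pair the C and L lists was checked from the deviations of covered bases from the group means. Pairs with 1 number correlated at 0.44, 0.23 and 0.18 (4483 genes). Pairs of different numbers ranged from -0.36 to 0.18, and C 2 with L 3 (0.18) was close to the pair numbered 3. As all pairs with 1 number exceed 0.1, a fit with the number as a block is given as an alternative. This rests on the data, since the labels give only the numbers. In the first L list the names of peaks hold the number 2, but its label decided its number.

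The members, the gene and marker lists and the tests were chosen with earlier results of these data known. Genes were named by a rule: the 15 members with the most peaks, the 8 leading members by recurrence in the synapse, in the controls and in the cKO lists and by peaks per 10 kb, up to 5 members per gene list, and the 5 with the smallest p in limma. Genes named for their place, for groups without overlap or for counts of 10 or fewer were added after their values were seen, as were members named for being in no other list or for the numbers of the lists. A few genes chosen in this way are not reported here.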

Additional observations from a re-analysis of the deposited data

How the results depend on the processing

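The set of genes moved most with the fold filter, and also with the minimum number of peaks and the place of the peak. With 3 or more peaks there were 345 genes and 3438 regions, with 5 or more 54 genes and 787 regions, with peaks inside the named gene alone 57 genes and 638 regions, and with a fold of at least 5 17 genes and 176 regions. A -log10 q of at least 10 left 977 regions. Leaving out 1 homogenate list gave 126 to 229 genes and 1532 to 2452 regions. Updated symbols and the joining of close peaks left the count within 1.5 times.

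The share of regions overlapped in the synapse was 55.8% with peaks inside the named gene alone, 41.6% with a -log10 q of at least 10 in the homogenate and 36.3% with it in all lists. It was 59.4% over genes named elsewhere, and 35.4% to 40.0% without 1 list. The share in both control lists was 13.01% with peaks inside the named gene alone, 14.8% with the fold filter and 10.7% with the -log10 q filter. It was 13.04% over genes named elsewhere and 7.79% to 15.7% without 1 list. Without 1 of the control lists, the share is that of the other control list alone, 15.7% or 12.4%, and so a looser measure. The share in any cKO list was 1.52% with 5 or more peaks, 3.29% with peaks inside the named gene alone, 1.14% with the fold filter, 0.512% with a -log10 q of at least 10 in all lists, 3.63% over genes named elsewhere and 0.386% to 2.85% without 1 list, the lowest without the first cKO list. For each of these the cause was not tested.

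With the replicate number as a block, covered bases again gave 0 genes, with 115 at an unadjusted p under 0.05, and without 1 list 0 to 0 genes passed. With the log2 number of peaks 19 genes passed, in a fit with variances of zero for some genes. In the paired count, 16 members had the same sign within all 3 numbers, 6 higher and 10 lower in L, against 4 without overlap between the groups. Over the 4483 genes 1.81% were higher and 2.74% lower in all 3 numbers. The block changed no other call. Regions in both control lists and neither cKO list numbered 113, 13 over peaks of at least 500 bp and 113 to 216 without 1 list. The 13 have no share over all regions beside them. Without 1 of the control lists, the counts of 216 and 170 ask for the other control list alone. The synapse comparison has no replicate, and no alternative beyond the shared range was run. Depth limits every absence, since a peak under the authors' threshold is not listed.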
